A study of Mus musculus with 8 samples.

Results

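Bone and cartilage differentiation genes were followed through JoMa1, a line of neural crest precursor cells from the mouse, and through lines established from tumours that MYCN-transfected JoMa1 cells gave rise to. The genes were Alpl, Runx2, Sp7, Spp1, Ibsp, Acan, Col2a1 and Phex, and every probe set that the platform annotation gives to 1 of these symbols alone was taken. That left 6 of the 8 genes, with 8 of the 34945 probe sets that carry 1 symbol. Neither Runx2 nor Spp1 had a probe set to itself in that annotation, and their levels were not analysed here. Ibsp and Phex had 2 probe sets each, and the other 4 genes had 1.

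Neural crest of the head gives rise to cartilage and bone as well as to nerve, glia and pigment cells. Cartilage cells lay down collagen II, whose chain Col2a1 encodes, and aggrecan, the large proteoglycan of Acan. Bone-forming cells are driven by the transcription factors Runx2 and Sp7 (osterix). They then express Alpl, the tissue-nonspecific alkaline phosphatase that removes the mineralization inhibitor pyrophosphate, the acidic matrix proteins Ibsp (bone sialoprotein) and Spp1 (osteopontin), and Phex, a membrane endopeptidase whose loss causes phosphate wasting.

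The set held 3 arrays of parental JoMa1, 1 array whose label gives JoMa1 with a GFP control construct, and 4 arrays of MYCN tumour lines, numbered 3 to 6 as in the labels. The labels speak of independent tumours grown in immunocompromised mice, and the cell line field describes lines derived from them, which is how they are treated here. All groups share the JoMa1 background, 1 cell line that carries a tamoxifen-activated MYC fusion. Whether tamoxifen was given is not stated in the sources used here, and neither are the promoter that drives the transfected gene and the clonality of the lines. Whether the parental arrays are separate cultures is not stated, so p-values measure the spread between these samples, which may be technical.

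Values are RMA levels on the log2 scale, on which 1 unit is a 2-fold change, and ± is followed by the SD within a group. Array medians ran from 6.26 to 6.30, and the bacterial trpnX controls read 3.56 to 4.47, a level at which a probe set carries little signal. The brightest Mycn probe set was at 7.42 ± 0.12 (n = 3 parental arrays) and at 14.17 ± 0.08 (n = 4 tumour lines), and the library labelled GFP-transfected read 11.73. Another Mycn probe set went the other way, at 8.13 ± 0.11 in parental arrays, 4.60 ± 0.07 in tumour lines and 4.33 in that library, and the third did not pass the test (5.76 ± 0.18, 6.07 ± 0.16 and 5.88). On the brightest probe set that library lay between the groups, 4.31 above the parental arrays and 2.43 below the tumour lines, both called in limma. On the probe set that went the other way, it lay with the tumour lines and away from the parental arrays. This goes against its label, and every direction drawn from that library has this limit. Of the neural crest markers, Tfap2b (9.82 ± 0.15), Zic1 (9.43 ± 0.06), Snai2 (11.55 ± 0.08) and Ets1 (11.36 ± 0.11) were high in 3 parental arrays. Foxd3 (4.59 ± 0.16) and Ngfr (5.40 ± 0.15) were low there. Sox10 and Tfap2a, also on the list of 8, are not given singly. In the tumour lines 3 of the 8 neural crest markers were lower and 1 was higher (median 0.025; 36.0% of all genes were called). The mean level of the 8 was 8.13 to 8.17 over the parental arrays and 6.86 to 7.35 over the tumour lines. Tfap2b fell by 5.20 (SE 0.13) and Zic1 by 4.48 (SE 0.74), each with its other probe set called lower too. Ets1 was lower by a narrow call (-0.58, SE 0.20, limma adjusted p = 0.0488) that ended without parental array 1, 2 or 3 or tumour line 3 or 5. The other Ets1 probe sets were called lower too (-0.96, -0.70 and -0.69). Snai2, named after its values were seen, was higher (0.53, SE 0.12). Some of these markers thus changed in the same comparison as the bone and cartilage genes described next. Their part in those results was not tested.

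Promoter windows of the measured genes are given first, since Alpl and Acan rose in the tumour lines while Phex fell and Ibsp stayed near background. For the measured genes, RefSeq windows of assembly GRCm38.p6, from 250 bases before to 50 after a start, were held for Alpl (2 starts), Acan, Ibsp and Phex. Sp7 and Col2a1 had no window. In capitals stand matches, on either strand, to the RUNX core TGTGGT, the nuclear receptor motif AGGTCA, the E-box CACGTG bound by MYC proteins, or TATAAA. These motifs were chosen with the expression results known.
Alpl, upstream start, chr4:137796335-137796634, minus strand: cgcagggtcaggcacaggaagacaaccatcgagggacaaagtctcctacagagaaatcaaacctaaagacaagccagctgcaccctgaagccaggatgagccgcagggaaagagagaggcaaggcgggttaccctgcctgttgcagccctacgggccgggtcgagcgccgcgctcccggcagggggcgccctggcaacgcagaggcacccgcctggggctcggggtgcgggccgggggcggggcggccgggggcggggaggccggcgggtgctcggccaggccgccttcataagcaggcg
Alpl, downstream start, chr4:137766426-137766725, minus strand: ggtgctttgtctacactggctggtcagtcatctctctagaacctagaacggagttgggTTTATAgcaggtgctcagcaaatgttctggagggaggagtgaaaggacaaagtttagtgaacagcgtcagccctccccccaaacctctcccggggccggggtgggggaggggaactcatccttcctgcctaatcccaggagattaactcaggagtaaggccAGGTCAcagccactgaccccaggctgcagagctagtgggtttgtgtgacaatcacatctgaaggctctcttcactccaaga
Acan, chr7:79052976-79053275, plus strand: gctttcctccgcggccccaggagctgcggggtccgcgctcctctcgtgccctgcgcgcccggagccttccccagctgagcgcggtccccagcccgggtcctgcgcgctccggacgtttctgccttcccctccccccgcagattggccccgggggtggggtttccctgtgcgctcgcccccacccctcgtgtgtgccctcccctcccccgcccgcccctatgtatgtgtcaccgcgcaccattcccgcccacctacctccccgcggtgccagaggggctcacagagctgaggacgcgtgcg
Ibsp, chr5:104299037-104299336, plus strand: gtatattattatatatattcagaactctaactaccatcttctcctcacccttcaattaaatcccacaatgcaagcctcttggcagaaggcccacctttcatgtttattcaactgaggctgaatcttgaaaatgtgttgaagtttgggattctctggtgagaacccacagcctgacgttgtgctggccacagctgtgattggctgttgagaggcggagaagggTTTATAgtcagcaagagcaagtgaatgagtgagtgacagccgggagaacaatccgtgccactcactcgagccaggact
Phex, chrX:157415237-157415536, minus strand: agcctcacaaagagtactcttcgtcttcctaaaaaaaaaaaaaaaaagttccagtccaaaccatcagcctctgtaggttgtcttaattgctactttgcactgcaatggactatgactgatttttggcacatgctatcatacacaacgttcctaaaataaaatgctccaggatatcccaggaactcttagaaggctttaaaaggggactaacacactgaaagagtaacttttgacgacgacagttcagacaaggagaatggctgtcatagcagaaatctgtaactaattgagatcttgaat

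The upstream Alpl window was 70.0% G or C with 26 CpG, and the Acan window 74.0% with 31. Which Alpl start these cells use was not tested, nor was any link of window composition or motifs to the changes in level. The median over 32851 windows was 52.7% with 7 CpG. The Phex window (38.7%, 4 CpG), the Ibsp window (46.3%, 5 CpG) and the downstream Alpl window (54.3%, 4 CpG) were poorer in CpG than that median. The downstream Alpl window held AGGTCA at position -31 and TTTATA at position -192, counted so that -1 is the base before the start. Ibsp held TTTATA at -28. The upstream Alpl, Acan and Phex windows held none of the 4 motifs, and neither TGTGGT nor CACGTG was found in the 5 windows printed. Over all windows, 16.8% held TGTGGT, 16.3% AGGTCA, 7.15% CACGTG and 13.6% TATAAA. A match is a string of letters and not a bound site.

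The main question of the design was how the tumour lines differ from the cells they came from. Alpl and Acan were higher in the tumour lines, Phex and Col2a1 were lower, and Sp7 and Ibsp did not pass the test. So 4 of 6 genes were called, that is, had an adjusted p under 0.05 in limma with Benjamini-Hochberg adjustment over all 18193 genes. In the same comparison 36.0% of all genes were called, 16.6% higher and 19.4% lower, and with 6 genes the count of 2 higher and 2 lower was not set apart from that share. The median difference of the 6 genes was 0.002, beside 0.013 over all genes. Alpl, Acan and Phex changed by at least 2-fold, with a call and such a change in 8.86% of all genes (4.92% higher, 3.93% lower). Of single probe sets 33.9% were called. Without parental array 2 only 2 of the 6 genes were called, Alpl and Phex. For the same 3 genes the tumour lines did not overlap the parental arrays, as was so for 44.4% of all genes (21.2% with tumour lines higher, 23.2% with them lower).

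**Figure D1:**
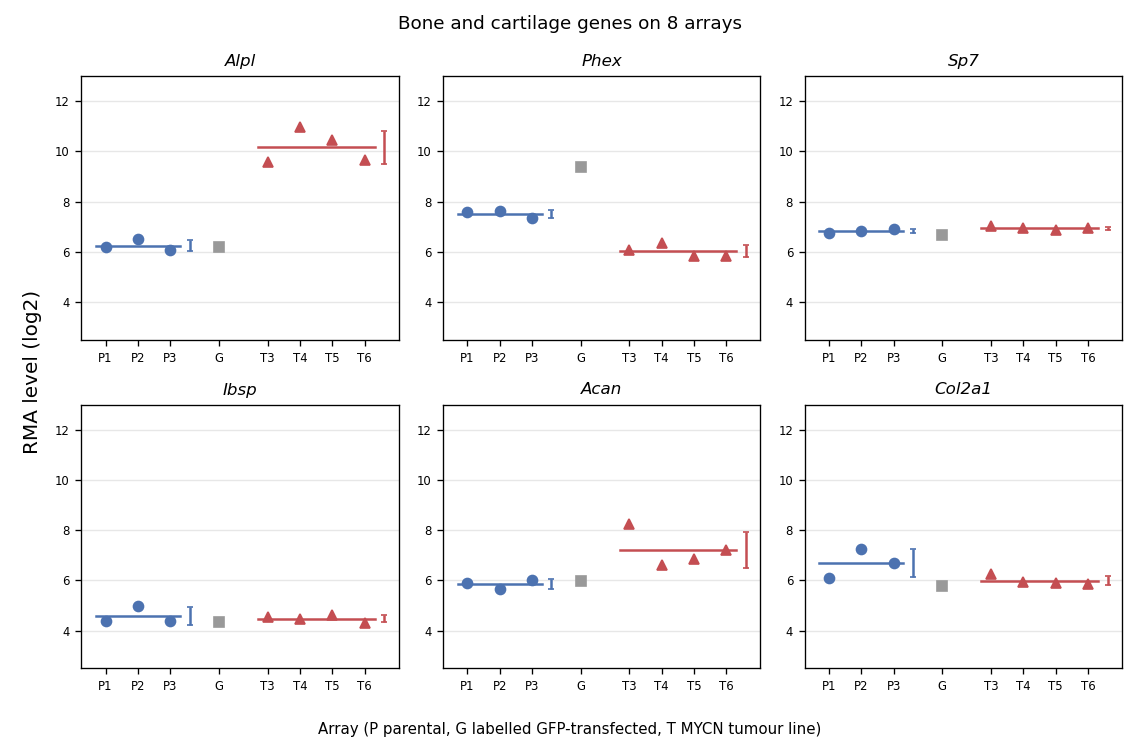
RMA level (log2, vertical axis) of the 6 measured genes on each of the 8 arrays: circles are parental arrays P1 to P3, the square is the library labelled GFP-transfected, and triangles are tumour lines T3 to T6. Lines mark group means and bars beside them 1 SD; Alpl stands at 9.57 to 10.96 among tumour lines and at 6.08 to 6.50 among parental arrays.

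Alpl carried the largest change. It read 6.18, 6.50 and 6.08 in parental arrays 1 to 3, and 9.57, 10.96, 10.43 and 9.66 in tumour lines 3 to 6. Every tumour line lay at least 3.07 above the highest parental array. The difference was 3.90 (SE 0.32), a 15.0-fold rise with a limma adjusted p of 3.87e-05. It ranked 67 among the rises of 18193 genes. The library labelled GFP-transfected read 6.21, inside the parental range (difference -0.04, SE 0.48, limma adjusted p = 0.98). Tumour lines exceeded that library by 3.94 (SE 0.47, 15.4-fold, limma adjusted p = 0.000373). The order of levels was therefore tumour lines above the other groups, with the parental arrays and that library not apart. The related phosphatase genes Alpi, Alppl2 and Akp3, expressed in gut and embryo, differed by 0.14, 0.12 and -0.14, and 0 of these 3 were called in limma (0 also at an unadjusted p under 0.05).

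Phex was the gene on which the 3 groups all differed. It stood at 7.58, 7.62 and 7.33 in parental arrays, at 9.36 in the library labelled GFP-transfected, and at 6.08, 6.37, 5.84 and 5.85 in tumour lines 3 to 6. The tumour lines all lay below the parental arrays, and that library lay above them. Phex fell by 1.48 in tumour lines (SE 0.14, 2.78-fold, limma adjusted p = 8.64e-05) and was 1.85 higher in that library than in parental arrays (SE 0.21, 3.61-fold, limma adjusted p = 0.000789). Between tumour lines and that library the difference was -3.33 (SE 0.21, 10.1-fold, limma adjusted p = 1.22e-05). The other Phex probe set was dim, 4.68 ± 0.09 in parental arrays, 4.83 in that library and 4.56 ± 0.12 in tumour lines. It was not called in any of the 3 comparisons.

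In the library labelled GFP-transfected, Phex was the only one of the 6 genes called against parental arrays, where 16.1% of all genes were called (7.43% higher, 8.66% lower) and 5.75% were called with a change of at least 2-fold (1.85% higher, 3.9% lower). Between tumour lines and that library 2 of the 6 were called, Alpl higher and Phex lower, both by over 2-fold. There 30.3% of all genes were called (14.0% higher, 16.4% lower), and 12.0% by at least 2-fold (6.66% higher, 5.32% lower). Markers of other cells moved in the same library. Of 6 adipocyte markers 1 was higher there and 1 lower, with 4 not called (median 0.123). The higher was Fabp4, a fatty acid carrier of fat and endothelial cells, at 9.17 against 6.52 ± 0.17 in parental arrays, and the lower was Cebpa, at 6.85 against 7.52 ± 0.11, a call that ended without any 1 of the 3 parental arrays. Of the other Fabp4 probe sets, that at 2.89 was called and those at 0.22 and 0.04 were not. The mean level of the 6 adipocyte markers was 5.47 to 5.57 over the parental arrays and 5.96 in that library. The endothelial cadherin gene Cdh5, named after its values were seen, stood at 6.71 against 4.75 ± 0.11. Cdh5 was the only 1 of 6 endothelial markers called there, and the mean level of the 6 was 4.89 to 5.03 in parental arrays and 5.20 in that library. Their part in the level of Phex was not tested.

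Sp7, the osteoblast transcription factor gene, read 6.74, 6.84 and 6.91 in parental arrays and 7.01, 6.94, 6.87 and 6.95 in tumour lines. The groups overlapped, and the difference of 0.11 (SE 0.07) was not called (limma adjusted p = 0.296). In the library labelled GFP-transfected it was 6.65, just below the parental range. Tumour lines differed from it by 0.29 (SE 0.11, limma adjusted p = 0.0733).

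Ibsp stayed close to the background of the arrays. Its brighter probe set read 4.37, 4.99 and 4.39 in parental arrays, 4.35 in the library labelled GFP-transfected and 4.54, 4.46, 4.62 and 4.29 in tumour lines. Parental array 2 was the highest, and without it the difference turned from -0.11 (SE 0.16, limma adjusted p = 0.668) to 0.10, neither called. The other probe set lay at 3.64 ± 0.14 and 3.59 ± 0.04, within the range of the trpnX controls. Ibsp lies in a row of acidic bone and tooth matrix genes on chromosome 5, with Dspp, Dmp1 and Mepe as neighbours. Dmp1 (4.03 ± 0.03 and 3.93 ± 0.14) lay below the highest trpnX reading on every array. Mepe differed by 0.08 (SE 0.11) and was not called, nor was the more distant neighbour Sparcl1 (-0.28, SE 0.19). Dspp, the dentin sialophosphoprotein gene, was called at a small difference of 0.25 (SE 0.08, limma adjusted p = 0.0492). That call ended without parental array 1, 2 or 3, without tumour line 3, 4 or 5, when arrays were centred or normalized again, and with the library labelled GFP-transfected among the parental arrays; alternatives gave 0.0399 to 0.161.

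Acan, the aggrecan gene, varied between the tumour lines. It read 5.89, 5.64 and 6.03 in parental arrays and 5.97 in the library labelled GFP-transfected. In tumour lines 3 to 6 it read 8.23, 6.62, 6.83 and 7.22. All tumour lines were above all parental arrays, by as little as 0.59 for line 4. The rise was 1.37 (SE 0.34, 2.59-fold, limma adjusted p = 0.0132). Without parental array 2 it was 1.27 and not called (0.0576; alternatives gave 0.00271 to 0.0576). Against the library labelled GFP-transfected the difference was 1.25 (SE 0.50, limma adjusted p = 0.0965) and not called, though it was called without tumour line 3 (0.92, adjusted p = 0.0239) or without line 4 (1.45, adjusted p = 0.0459). Alternatives there gave 0.0239 to 0.15. The SD of Acan over the tumour lines, 0.71, was above that of 98.2% of all genes, and that of Alpl, 0.66, above 97.9%. The lines did not order alike: line 4 was highest for Alpl and lowest for Acan, while line 3 was lowest for Alpl and highest for Acan.

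Col2a1 did not rise with Acan. It read 6.11, 7.25 and 6.70 in parental arrays, a spread (SD 0.57) above that of nearly all genes, and 6.25, 5.92, 5.91 and 5.84 in tumour lines. Tumour line 3 lay above parental array 1, so the groups overlapped. It just passed as lower, at -0.71 (SE 0.24, limma adjusted p = 0.047). The call ended without parental array 2 (-0.43) or 3 (-0.70) and without tumour line 4 (-0.69), 5 (-0.68) or 6 (-0.66), and also with a trended variance prior. The library labelled GFP-transfected read 5.77, the lowest of the 8 arrays and 0.92 below the parental mean (SE 0.36, limma adjusted p = 0.137; called without parental array 1, at -1.20 and an adjusted p of 0.0254, with 0.0254 to 0.243 over all alternatives). With that library counted among the parental arrays, the tumour-line difference was -0.48 and not called (0.271, where the alternatives spanned 0.00583 to 0.271).

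**Figure D2:**
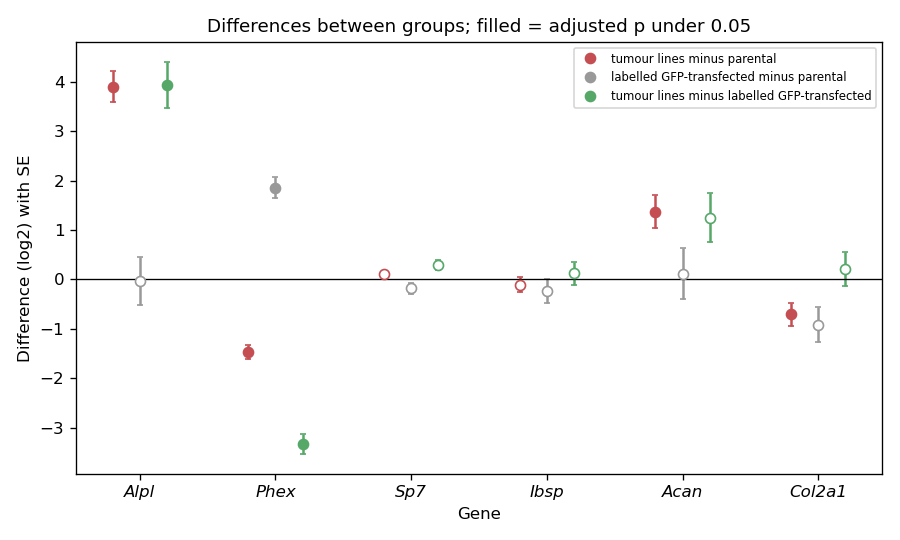
Difference between groups (log2, vertical axis, bars are SE from the limma fit) for the 6 measured genes in 3 comparisons given by colour, filled where the adjusted p was under 0.05. Phex falls by 1.48 in tumour lines and is 1.85 higher in the library labelled GFP-transfected; comparisons share arrays and are not independent.

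Other regulators of bone formation were read from a list of 10, of which 9 were measured. In the tumour lines 3 were higher and 1 was lower, with a median difference of 0.109, beside 36.0% called and a median of 0.013 over all genes. Vdr, the vitamin D receptor gene, read 6.56, 6.80 and 6.40 in the parental cells and rose in tumour lines 3 to 6, to 11.62, 10.99, 11.74 and 11.11 (4.78, SE 0.20, 27.4-fold, limma adjusted p = 9.57e-07). In the library labelled GFP-transfected it was 4.97, below every parental array (-1.62, SE 0.30, limma adjusted p = 0.00764). The other Vdr probe set rose too (4.22). The homeobox gene Dlx3 rose by 1.48 (SE 0.29), to 8.27, 7.16, 8.21 and 8.54 in tumour lines 3 to 6 from 6.57 ± 0.14 in 3 parental arrays, while its other probe set (0.20) was not called. Msx1, another homeobox gene of the skull, rose by 1.05 (SE 0.19). The 1 gene lower was Atf4 (-0.29, SE 0.07), named after its values were seen and not called without parental array 1 or 2. Cbfb, the partner of RUNX proteins, stood at 12.09 ± 0.02 in parental arrays and 12.11 ± 0.03 in tumour lines and was not called.

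Of 23 bone matrix and mineralization genes 19 were measured, and 6 were higher and 3 lower, with a median of 0.176, where 16.6% of all genes were higher and 19.4% lower. Col1a2, a chain of the main bone collagen, rose from 8.53 ± 0.05 to 11.79, 10.53, 11.57 and 12.23 in tumour lines 3 to 6 (2.99, SE 0.34, 7.96-fold). Mgp, an inhibitor of calcification, rose from 10.08 ± 0.12 to 11.12 ± 0.65 (1.04, SE 0.31, limma adjusted p = 0.0288), a call that ended without tumour line 3 or any 1 of the 3 parental arrays. Omd, a small proteoglycan of bone, rose by 0.89 (SE 0.26, limma adjusted p = 0.0285), and its call ended without parental array 1 or 3 or tumour line 5. The 3 genes lower, named after their values were seen, were the secretory kinase gene Fam20c (-0.78, SE 0.11) and the phosphate transporter genes Slc20a1 (-0.45, SE 0.13) and Slc20a2 (-0.24, SE 0.07). The calls of both transporters ended without parental array 1, 2 or 3. The list then had 3, 4 and 3 genes higher and 1 lower, and with the library labelled GFP-transfected among the parental arrays it had 3 higher and 2 lower.

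In the library labelled GFP-transfected, 4 of the 19 bone matrix genes were lower than in parental arrays and 2 higher (median -0.136), where 8.66% of all genes were lower and 7.43% higher. Mgp read 5.23 there, 4.85 below the parental mean (SE 0.46, limma adjusted p = 0.000296), and Col1a2 read 6.46 (-2.08, SE 0.51, limma adjusted p = 0.0267). The call of Col1a2 in that library ended without any 1 of the 3 parental arrays, as did that of Slc20a1. The other Col1a2 probe sets differed there by -1.28 and 0.13 and were not called. The 2 higher were Slc20a1 and Slc20a2, which, like Phex, were lower in tumour lines. Comparisons with the parental arrays share those arrays.

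Of 21 cartilage genes beyond Acan and Col2a1, 20 were measured, and 2 were higher, 1 was lower and 17 were not called, with a median of -0.002. Over all genes 36.0% were called. Prg4, which encodes the joint lubricant lubricin, rose from 6.07 ± 0.16 to 10.01, 8.58, 10.66 and 8.17 in tumour lines 3 to 6 (3.29, SE 0.55, 9.75-fold, limma adjusted p = 0.00174). Comp, a matrix protein of cartilage and tendon, just passed (0.57, SE 0.19, limma adjusted p = 0.0498), and the call ended when arrays were centred or normalized again and without parental array 1, 2 or 3 or tumour line 4 or 5. Col11a1, a chain of the collagen that nucleates cartilage fibrils, fell by 2.77 (SE 0.13, limma adjusted p = 1.99e-06). In the library labelled GFP-transfected Col11a1 was also lower than in parental arrays, by -2.34 (SE 0.20). Sox9, the master regulator of cartilage, stood at 7.97 ± 0.08 in parental arrays and 8.10 ± 0.24 in tumour lines and was not called (0.13, SE 0.13).

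Hapln1, whose link protein joins aggrecan to hyaluronan, was singled out after its values were seen. It read 7.14 in tumour line 5, and 3.79, 3.73 and 3.84 in lines 3, 4 and 6, with 3.84 ± 0.17 in parental arrays. Its 3 other probe sets were also highest in line 5, at 5.06, 5.24 and 5.17. Line 5 was not the line with the highest Acan, which was line 3.

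**Figure D3:**
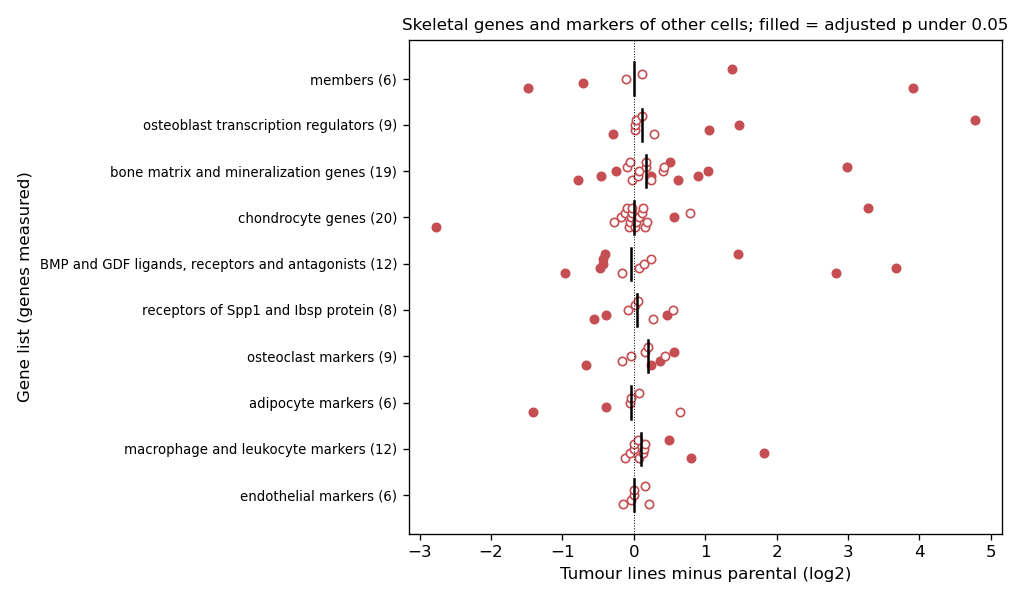
Difference of tumour lines minus parental arrays (log2, horizontal axis) for every measured gene of 10 lists (rows, with the number measured), 1 point per gene, filled where the adjusted p was under 0.05, with a black line at the list median. List medians lie between -0.05 and 0.20 while single genes reach 4.78 (Vdr) and -2.77 (Col11a1).

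Among ligands, receptors and antagonists of the BMP family, which start bone and joint formation, 12 of 13 were measured, and 3 were higher and 5 lower (median -0.04), where 16.6% of all genes were higher and 19.4% lower. The count of 5 lower became 2 without parental array 1 or 3, 3 without parental array 2 or with probe sets of a gene averaged, and 1 with the library labelled GFP-transfected among the parental arrays. Bmp2 rose from 6.15 ± 0.14 to 8.03, 9.16, 10.08 and 8.67 in tumour lines 3 to 6 (2.84, SE 0.41, 7.14-fold, limma adjusted p = 0.000791). Gdf5, a ligand of joint formation, rose from 5.27 ± 0.37 to 9.60, 8.16, 8.71 and 9.29 (3.67, SE 0.33, 12.7-fold, limma adjusted p = 6.21e-05). The order of the lines for Gdf5, with line 3 highest and line 4 lowest, had the same ends as that of Acan. How many genes share these ends was not counted, and line 4 was lowest for Dlx3 and Col1a2 too. The antagonist gene Grem1 rose by 1.45 (SE 0.29). The 5 lower, named after their values were seen, were Bmpr2 (-0.97, SE 0.11), Bmp5 (-0.48), Bmp7 (-0.44), Bmpr1b (-0.43) and Bmpr1a (-0.41).

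Of 8 receptor genes for osteopontin and bone sialoprotein, 1 was higher and 2 were lower (median 0.04; 36.0% of all genes were called): Cd44 (0.47, SE 0.14), Itgb1 (-0.56, SE 0.08) and Itgb5 (-0.39, SE 0.12). The calls of Cd44 and Itgb5 ended without parental array 1, 2 or 3, and that of Cd44 also without tumour line 5. Of the other Cd44 probe sets, that at 0.47 was called and those at 0.26 and 0.05 were not. Itgav (12.44 ± 0.02 in parental arrays) and Itgb3 (6.44 ± 0.06) were not called.

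**Figure D4:**
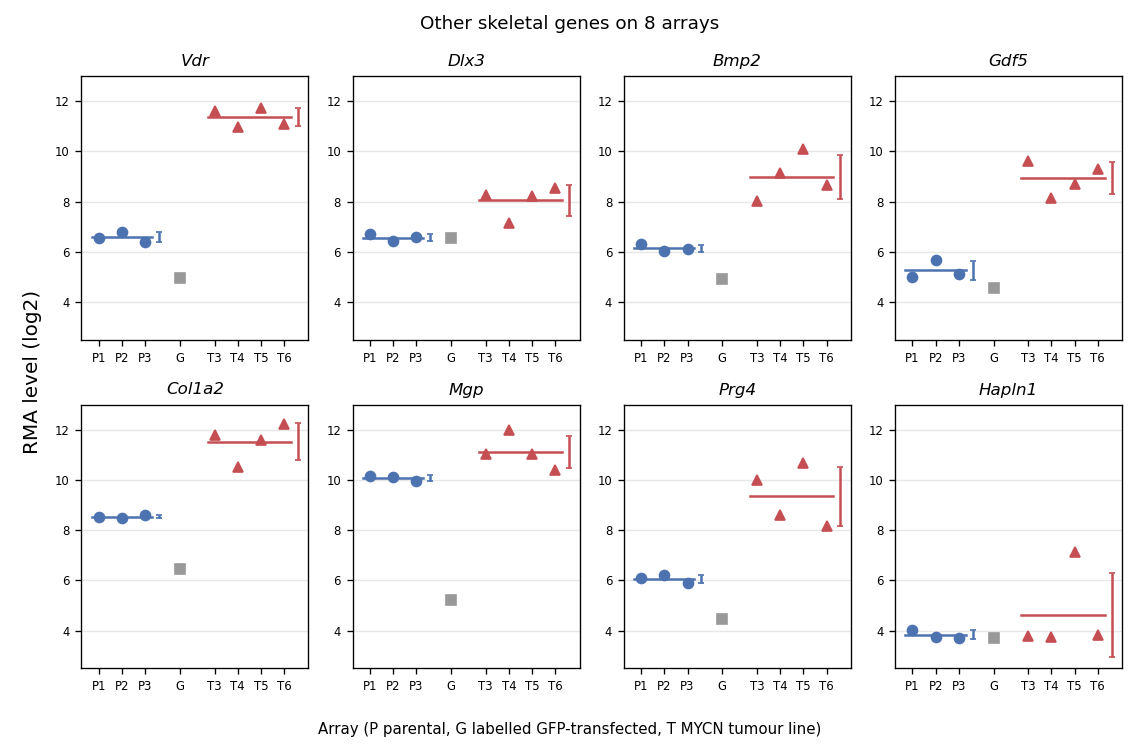
RMA level (log2, vertical axis) of 8 other skeletal genes on each array, drawn as for the measured members, with group means as lines and 1 SD as bars. Vdr, Gdf5 and Prg4 are above all parental arrays in every tumour line, and Hapln1 is high in line 5 alone, at 7.14.

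Markers of other cell types are given beside these results and are read against the same 36.0%. Of 9 osteoclast markers 3 were higher and 1 was lower (median 0.199), with Atp6v0d2 (0.57, SE 0.12), Dcstamp (0.37, SE 0.08) and Mmp9 (-0.67, SE 0.07) moving most. The other Atp6v0d2 probe set was dim and not called (0.44). The mean level of the list was 5.50 to 5.55 over the parental arrays and 5.60 to 5.72 over the tumour lines, and Calcr lay below the highest trpnX reading on every array. Of 12 macrophage and leukocyte markers 3 were higher (median 0.104), Cd14 (1.83, SE 0.15), Cd68 (0.80, SE 0.09) and Lyz2 (0.49, SE 0.10). Their mean level was 5.14 to 5.27 over the parental arrays and 5.46 to 5.54 over the tumour lines, and the leukocyte genes Ptprc, Itgam and C1qb lay below the highest trpnX reading on all 8 arrays. In limma, 0 of 6 endothelial markers were called (0 also at an unadjusted p under 0.05). Their mean level was 4.89 to 5.03 over the parental arrays and 4.92 to 5.13 over the tumour lines. Of 6 adipocyte markers 0 rose and 2 fell, Fabp4 (-1.41, SE 0.15) and Cebpa (-0.39, SE 0.12; not called without parental array 1, 2 or 3). Of the other Fabp4 probe sets, that at -1.09 was called and those at -0.04 and 0.10 were not. The mean level of the 6 adipocyte markers was 5.47 to 5.57 over the parental arrays and 5.25 to 5.44 over the tumour lines, with Adipoq below the highest trpnX reading on every array. The part of these cells in the levels of the bone and cartilage genes was not tested. On bulk arrays, fewer cells of a type and less RNA per cell cannot be told apart.

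Of the 6 measured members, Alpl had the widest range over the 8 arrays, 4.88. Among 9095 other genes with a mean level above the median of all genes, those with the most similar pattern over the 8 arrays were Hoxd9 (Pearson r = 0.997), Serp1 (0.994) and Smyd4 (0.993). This is a description of 3 groups of arrays, and 337 genes reached an r above 0.95. Hoxd9, a homeobox gene of trunk and limb, read 8.88, 9.72, 9.37 and 8.71 in tumour lines 3 to 6 and 6.56 ± 0.10 in parental arrays. Line 4 was highest as for Alpl, but Hoxd9 was chosen for its likeness to Alpl on these arrays, so this adds no support.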

How the data were processed

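RNA of 8 samples was measured on 8 Affymetrix arrays. The deposited table holds log2 values per probe set, made by the authors with RMA and Partek, per the submitters' processing notes, which give no version; that they are log2 follows from their range. RMA subtracts background and normalizes arrays to a shared distribution, so dim genes show too small a difference and each level is relative to its array. Scanner intensities and detection calls were not used here, and the number of arrays limits the precision.

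Of 45101 probe sets, 34945 carried 1 gene symbol, 932 several and 9160 none, and 64 were controls; only the first kind was used. RefSeq (GRCm38.p6) held 34741 of their gene IDs, and 0 symbols changed. For each of 18193 genes the probe set of highest mean level was kept. Members with 2 probe sets are given with both, from the same model over all 34945 probe sets.

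Comparisons used limma 3.58.1 in R 4.3.3 (lmFit, eBayes) on all 8 arrays with a mean for each group, two-sided, and Benjamini-Hochberg adjustment over all genes, called at an adjusted p under 0.05. The library labelled GFP-transfected is 1 array, whose spread is taken from the other groups. The code was tested on simulated data. Members, lists and named genes were chosen with earlier results of these data known. All 8 members were named and, of each list, up to 3 called genes of largest difference, with the neighbours of Ibsp (Pkd2 had no probe set among those used) and the 3 genes most like the member of widest range; others are said to be named after their values were seen. Listed genes without such a probe set were not analysed here. Alternatives were other probe set rules, a filter on dim genes, another variance prior, repeated quantile normalization, median centring, other sets of arrays, and leaving out each array.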

Additional observations from a re-analysis of the deposited data

Results flagged for a closer look

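In 39 sets of tumour-line values tested for a value far from the others, 2 stood apart. Chance gives about 1 in 20 for independent sets fixed beforehand. These sets share the same tumour lines and were not all fixed beforehand, so the count is not read against that rate. Hapln1 was put among these sets after its values were seen, so its place here was known beforehand. In tumour line 5 Hapln1 read 7.14, far above the other tumour lines. Cd68 in tumour line 4 read 6.30, below the 6.58 to 6.62 of the other lines.

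For 6 of the genes named by the rule fixed for naming, the tumour lines and the library labelled GFP-transfected differed from parental arrays in opposite directions, both called, and the difference between them, tumour lines minus that library, was called in limma as well. It was -3.33 for Phex and -4.06 for Fabp4, which were lower in tumour lines and higher in that library. It was 6.40 for Vdr, 5.89 for Mgp, 5.07 for Col1a2 and 3.45 for Grem1, which were higher in tumour lines and lower in that library. The other Col1a2 probe sets were not called in that library against parental arrays. Neither the other Phex probe set nor the Fabp4 probe sets at 0.22 and 0.04 in that library were called in any comparison. Other genes of the lists, named after their values were seen, also went opposite ways with all 3 differences called: tumour lines minus that library was -1.26 for Slc20a1, -0.76 for Slc20a2 and -1.60 for Bmp7, and 1.35 for Snai2, 1.29 for Sparc and 5.41 for Col1a1. The share of all genes that go opposite ways was not counted, and the naming rule takes called genes of large tumour-line difference. These counts are therefore not read as a trait of the named genes. That library is 1 array whose Mycn signal goes against its label.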

How the results depend on the processing

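Of 249 values of member differences under the alternatives, 235 kept their direction and their side of the threshold, 8 lost the call, 3 gained it and 3 changed sign. Part of these could hardly change, so the 235 is not a measure of robustness. Leaving out the library labelled GFP-transfected repeats the main fit, since 1 array adds nothing to the spread. Genes with 1 probe set keep their levels under other probe set rules. Tumour lines minus that library keep their difference whichever parental array is left out. Alpl (3.64 to 4.10) and Phex (-1.94 to -0.80) were called in tumour lines against parental arrays under every alternative in which they were tested. For the library labelled GFP-transfected against the parental arrays, Alpl turned to 0.024 with centred arrays and ranged from -0.13 to 0.088 with arrays left out in turn. Ibsp in tumour lines ranged from -0.21 to 0.10 with arrays left out. Neither was called. Members called were 2 to 4 for tumour lines against parental arrays, 1 to 2 for that library against parental arrays and 2 to 3 for tumour lines against that library with arrays left out. Among genes above the median level, where of the members only Alpl was left to test, they were 1, 0 and 1. With every probe set tested singly, 11843, 5015 and 10117 of 34945 probe sets were called, more than the 6547, 2927 and 5514 genes since more features were tested. Against parental arrays, 1982 to 3388 genes were called in that library with arrays left out, lowest without parental array 3. No paired analysis was possible because the parental arrays and tumour lines share only the number 3. Levels near the trpnX controls, such as those of Ibsp, limit what could be seen.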
